A study of Mus musculus with 8 samples.

Results

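The change in gene expression from epiblast-like cells (EpiLC) to epiblast stem cells (EpiSC) was followed here by RNA-seq in Mll3/4 dCD cells. The comparison took the 2 EpiSC dCD libraries and the 2 EpiLC dCD libraries, 4 of 8 libraries in all, and the other 4 were the matching wild type (WT) libraries of both stages. Mll3/4 dCD is a single clonal line made in R1 mouse embryonic stem cells (ESC), in which point mutations end the catalytic activity of 2 H3K4 methyltransferases, MLL3 (gene Kmt2c) and MLL4 (gene Kmt2d), and WT is the R1 strain with both enzymes active. All cells came from ESC held in 0.4 µM PD0325901, 3 µM CHIR99021 and LIF. EpiLC were taken on day 2 on fibronectin in N2B27 medium with 20 ng/ml activin A, 12 ng/ml bFGF and knockout serum replacement. EpiSC were passaged for at least 8 days on fibronectin in N2B27 with the same doses of activin A and bFGF, a medium for which no serum replacement is listed. Stage, time in culture, medium and any batch of preparation therefore cannot be told apart, and neither can the dCD genotype and its clone. The labels do not say that replicates are separate cultures, so p-values cover only how far these samples lie apart, a spread that may be technical.

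EpiLC are a short-lived formative state that resembles the early post-implantation epiblast and can be turned into primordial germ cell-like cells (PGCLC). EpiSC resemble the later, gastrulating epiblast, have lost most of that ability and carry the first transcripts of primitive streak and endoderm. MLL3 and MLL4 write much of the H3K4me1 that enhancers carry, and the dCD proteins still bind chromatin and hold their partners without placing the mark. The comparison thus asks how the step from the formative to the primed state looked in cells without that activity.

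Values are an abundance per gene, called value below. It is the deposited value, headed as TPM (a transcript share corrected for length) but with column sums that differ between libraries, rescaled here so that the median gene used for rescaling is alike in the 4 libraries. Read depth is unknown. Column sums as deposited ranged from 813537 to 1033290, mitochondrial transcripts took 2.63% to 4.11% of each library and ribosomal protein genes 16.1% to 22.9%. The EpiLC pair differed more than the EpiSC pair, with a median absolute log2 difference per gene of 0.286 against 0.107, and ribosomal protein genes took 22.9% in EpiLC library 1 against 17.6% in EpiLC library 2. Kmt2c and Kmt2d transcripts read 2.69 and 2.85 in EpiLC library 1, 6.15 and 7.83 in library 2, 5.83 and 6.45 in EpiSC library 1 and 6.63 and 7.52 in library 2. Point mutations leave the transcript in place, so these levels check nothing about the genotype.

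The largest rises fell on genes of the anterior primitive streak, the definitive endoderm and the signalling antagonists made there. Lhx1, a LIM homeobox factor of the anterior streak and node (chromosome 11, 84518284 to 84525535 in GRCm38), read 0.173 and 0.273 in the EpiLC libraries and 189 and 154 in the EpiSC libraries, a log2 change of 7.13 ± 0.18 (SE). Sox17, the endoderm factor (chromosome 1, 4490931 to 4497354), went from 0.633 and 0.606 to 177 and 155 (log2 6.68 ± 0.16). Gsc, the organizer homeobox gene, went from 1.46 and 0.736 to 141 and 106 (log2 5.90 ± 0.25). The rule for named genes kept only genes whose stages do not overlap, so the lack of overlap in the largest rises is no finding. Mixl1, a streak homeobox gene, rose from 1.35 and 0.934 to 84.4 and 93.2, and Foxa2, a forkhead factor of streak and endoderm, from 1.04 and 0.913 to 90.2 and 74.1. Both changed by log2 5.39, with a standard error of 0.18. Cxcr4, a chemokine receptor carried by definitive endoderm, went from 0.501 and 0.323 to 74.8 and 66.8 (log2 5.67 ± 0.17). Secreted antagonists formed a second group. Dkk1, which blocks the Wnt co-receptor, read 0.297 and 0.449 in EpiLC and 58.4 and 65.1 in EpiSC (log2 5.52 ± 0.17). Frzb, a Wnt-binding frizzled-related protein, read 0.505 and 0.539, then 53 and 43.1 (log2 5.0 ± 0.18). Cer1, which binds Nodal and BMP, read 0.0640 and 0.0162, then 25.7 and 34.1 (log2 4.88 ± 0.20).

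The remaining rises by the rule for named genes were of other kinds. Amot, an X-linked angiomotin of tight junctions that binds YAP, rose from 6.41 and 14.6 to 607 and 628 (log2 5.85 ± 0.36), the EpiLC libraries being more than 2-fold apart. Sprr2a2, of the cornified envelope family, rose from 19.5 and 13.1 to 565 and 645 (log2 5.15 ± 0.22). Its gene model overlaps that of Sprr2a1, and Sprr2a3 is a near-identical copy, so reads are shared among them. Dgkk, an X-linked diacylglycerol kinase, rose from 0.478 and 0.950 to 51.3 and 54.1 (log2 4.98 ± 0.20). Adjusted p lay between 0.000467 and 0.000824 for these 12 rises by limma with Benjamini-Hochberg adjustment over 12307 genes. Without either EpiSC library only 5 of the 12 still reached the filter on low values, and these 5 passed.

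The largest falls held naive pluripotency and germline genes. Dppa5a, an RNA-binding protein of naive cells (chromosome 9, 78367052 to 78368177), read 1361 and 751 in EpiLC and 2.09 and 2.08 in EpiSC, a log2 change of -8.36 ± 0.29. Dppa2, which with DPPA4 marks developmental promoters in early embryos, went from 80.1 and 71.8 to 0.821 and 1.13 (log2 -5.29 ± 0.17). Dnmt3l, the catalytically inactive partner of the de novo DNA methyltransferases, went from 34.8 and 26.7 to 0.228 and 0.0803 (log2 -4.77 ± 0.20). Both EpiLC libraries were high in all 3 genes and the EpiSC libraries at or near the added constant of 1. Sycp3, a lateral element of the meiotic synaptonemal complex (chromosome 10, 88459569 to 88473236), fell from 41.2 and 33.9 to 0.341 and 0.214 (log2 -4.91 ± 0.19). Fmr1nb, a testis antigen gene on the X chromosome, fell from 92.2 and 61.4 to 0.416 and 0.874 (log2 -5.55 ± 0.27). Rpl39l and Rpl10l are germline copies of ribosomal protein genes, share sequence with Rpl39 and Rpl10, and were nearly gone from EpiSC. Rpl39l read 90.7 and 55.1, then 0.145 and 0. Rpl10l read 52.9 and 31.5, then 0 and 0.0280. Also lost were Pla2g1b, a secreted phospholipase (96.1 and 58.0, then 1.14 and 1.15), and Pycard, the inflammasome adaptor ASC (57.3 and 30.8, then 0.511 and 0.221). Triml2 fell from 36.8 and 34.3 to 0.101 and 0.398. The zinc finger genes Zfp980 (32.8 and 54.1, then 0.433 and 0.533) and Zfp988 (26.6 and 28.2, then 0.172 and 0.196) lie in a cluster of near-identical copies on chromosome 4. Adjusted p by limma lay between 0.000467 and 0.00099 for the 12 falls. Like the largest rises, they were chosen among genes that passed and whose stages do not overlap, so neither trait is a finding. Without either EpiLC library only 3 of the 12 still reached the filter, and all 3 passed.

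**Figure D1:**
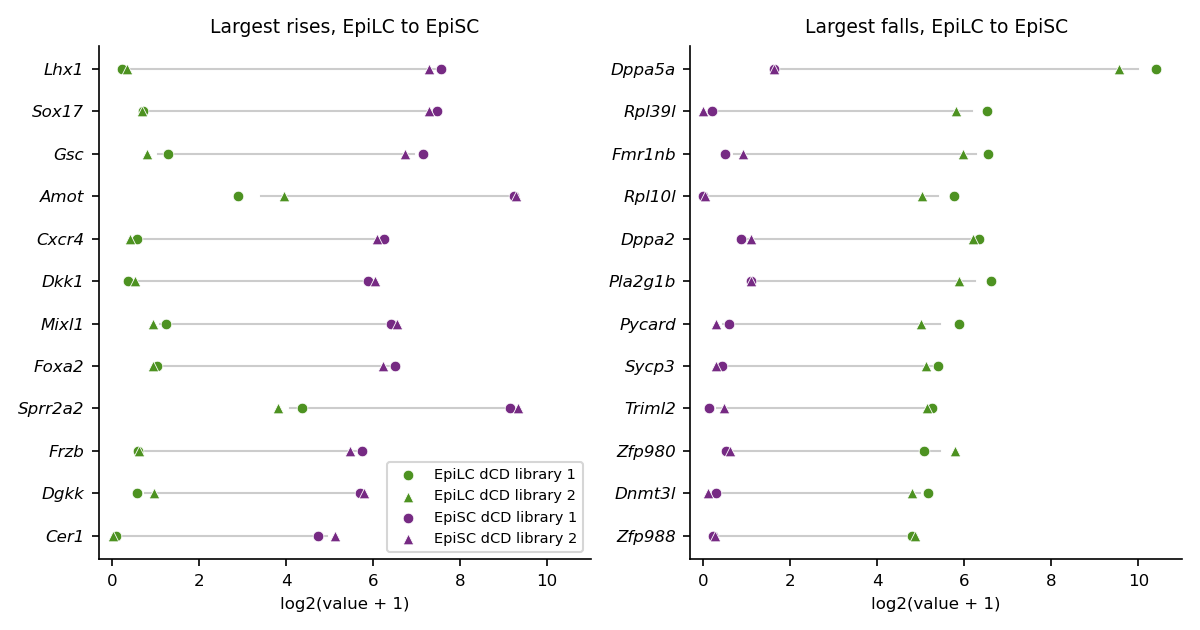
Values of the 12 genes with the largest rise (left) and the 12 with the largest fall (right) in each of the 4 dCD libraries. The x axis is log2(value + 1), circles are replicate 1, triangles replicate 2, green is EpiLC, purple is EpiSC and grey lines join the stage means. The genes were chosen so that the 2 EpiSC points lie on 1 side of the 2 EpiLC points, and Dppa5a spans the widest gap.

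Over the whole transcriptome 12307 of 32334 genes had a value of 1 or more in 2 or more of the 4 libraries and entered the test. Of these 3013 passed at an adjusted p under 0.05, a background of 24.5%, with 1571 higher in EpiSC (12.8%) and 1442 lower (11.7%). Among the calls 905 higher and 908 lower genes changed at least 2-fold, and 78 and 90 at least 8-fold, on the scale of value plus 1. That scale understates the change of low genes. List members named below were picked by smallest p, from a written panel or after their values were seen. Any lack of overlap between their stages is therefore no finding. A low gene reaches the filter only through the stage where it is high, so counts of list members below are a description of the list and are read beside these percentages and beside the median over all genes, a log2 change of 0.01. Leaving out EpiLC library 1 gave 2782 higher and 2011 lower genes, and leaving out EpiLC library 2 gave 3859 and 3160. Leaving out EpiSC library 1 gave 714 and 900, and EpiSC library 2 gave 603 and 881.

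Germline genes that are held silent by DNA methylation in most tissues were among the clearest falls. In embryos many of them are silenced after implantation through the E2F6 repressor of polycomb complex PRC1.6 and through MGA and MAX, which bind the E-box. Of 44 listed methylation-sensitive germline genes 29 were tested, of which 24 were lower in EpiSC, 1 was higher and 4 did not pass, with a median log2 change of -1.98. The filter kept 20 of the 29 through the EpiLC libraries only. With no filter 27 of 39 were lower and 1 higher. Without EpiLC library 1 or 2 only 11 remained testable, with 7 or 6 lower and 2 or 1 higher. Summed over the list, values were 503 and 407 in EpiLC and 103 and 93.9 in EpiSC.

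Promoters of 4 of these genes are shown because the members fell together and the motifs differ among them. Each run is 300 bases, 250 before and 50 after the annotated start, read 5′ to 3′ on the strand of the gene from RefSeq sequence of GRCm38.p6. Capitals mark the E-box CACGTG and the E2F6 motif TCCCGC on either strand, where it reads GCGGGA. They are Sycp3 at chr10:88459337-88459636 (plus strand), Mael at chr1:166238695-166238994 (minus strand), Taf7l at chrX:134476441-134476740 (minus strand) and Tex19.1 at chr11:121145893-121146192 (plus strand).
Sycp3: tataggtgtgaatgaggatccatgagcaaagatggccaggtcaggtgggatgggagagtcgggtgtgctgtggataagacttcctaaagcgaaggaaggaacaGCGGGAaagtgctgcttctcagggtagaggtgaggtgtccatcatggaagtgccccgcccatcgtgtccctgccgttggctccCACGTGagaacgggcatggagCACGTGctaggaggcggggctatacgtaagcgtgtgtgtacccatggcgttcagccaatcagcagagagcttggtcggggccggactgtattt
Mael: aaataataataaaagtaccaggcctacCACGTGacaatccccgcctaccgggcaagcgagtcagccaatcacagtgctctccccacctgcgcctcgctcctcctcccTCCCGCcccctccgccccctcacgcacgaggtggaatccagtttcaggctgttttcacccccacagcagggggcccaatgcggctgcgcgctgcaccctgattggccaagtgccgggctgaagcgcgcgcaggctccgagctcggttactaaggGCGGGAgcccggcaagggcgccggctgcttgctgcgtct
Taf7l: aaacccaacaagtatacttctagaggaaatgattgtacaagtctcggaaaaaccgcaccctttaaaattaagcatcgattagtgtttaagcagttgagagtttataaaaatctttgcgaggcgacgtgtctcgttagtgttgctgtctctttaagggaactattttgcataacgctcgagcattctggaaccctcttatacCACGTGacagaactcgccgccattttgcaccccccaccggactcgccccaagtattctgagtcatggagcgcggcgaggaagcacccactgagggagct
Tex19.1: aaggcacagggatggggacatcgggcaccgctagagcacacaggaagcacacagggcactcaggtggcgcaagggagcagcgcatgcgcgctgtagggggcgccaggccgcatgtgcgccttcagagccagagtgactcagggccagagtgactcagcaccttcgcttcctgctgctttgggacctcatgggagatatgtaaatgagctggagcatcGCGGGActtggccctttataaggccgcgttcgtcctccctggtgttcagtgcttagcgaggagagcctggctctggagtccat

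The Sycp3 promoter held 2 E-boxes and 1 E2F6 motif, that of Mael 1 and 2, that of Taf7l 1 E-box and no E2F6 motif, and that of Tex19.1 no E-box and 1 E2F6 motif. Over the 29 tested members, all of which had a promoter in the table, 11 held an E-box (37.9%), against 11.8% of the tested genes that had one and 7.84% of all 19202 promoters. The E2F6 motif was present in 12 of the 29 (41.4%), against 41.3% of tested genes and 26.1% of all promoters. A match of letters is a description of the sequence only.

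Of the genes whose promoters are printed, Mael, which acts in piRNA-guided transposon silencing, read 17.7 and 14.7 in EpiLC and 0.0200 and 0.0347 in EpiSC (log2 -4.06 ± 0.17, adjusted p = 0.000484). Tex19.1, which also restrains transposons, went from 52.7 and 47.6 to 2.03 and 2.62 (log2 -3.95 ± 0.18, adjusted p = 0.000527). Taf7l, an X-linked TFIID subunit of spermatogenesis, went from 4.62 and 3.37 to 0.0156 and 0.0759 (log2 -2.24 ± 0.18, adjusted p = 0.00161). Of the 4 printed promoters those of Sycp3 and Mael held the E-box and the E2F6 motif together. All 4 genes had both EpiLC libraries above both EpiSC libraries, but they were picked with their values known. Sycp1 also held both motifs and did not pass. Whether motif and fall go together was not tested. Further falls were Syce1, of the synaptonemal complex (17.2 and 12.8, then 0 and 0.0185), Tdrd12, of the piRNA pathway (20.3 and 15.1, then 0.157 and 0.212), and Fkbp6, needed in male meiosis (9.23 and 5.85, then 0.0489 and 0.0424). Hormad1, of the meiotic chromosome axis (3.07 and 1.81), and Mov10l1, the piRNA helicase (2.47 and 3.49), were listed at 0 in both EpiSC libraries. Mov10, a broadly expressed helicase related to Mov10l1, was the single member that rose, from 14 and 14.5 to 32.1 and 31.7 (log2 1.11 ± 0.14). The members that did not pass were Tdrkh (12.1 and 9.70, then 15.7 and 14.2), Sycp1 (2.22 and 2.55, then 1.36 and 0.685), Xlr4a (4.70 and 3.87, then 3.49 and 1.37) and Xlr3a (22.1 and 21.4, then 18.7 and 14.4). Xlr3a and Xlr4a belong to X-linked families of near copies that share reads.

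Transcripts of the 2-cell-like state, a rare condition of ESC that switches on genes of zygotic genome activation, were found in EpiLC dCD and were absent or nearly so from EpiSC dCD. Zscan4f (chromosome 7, 11397915 to 11402318), of a family linked to telomere maintenance, read 20.6 and 19.11 in EpiLC and was listed at 0 in both EpiSC libraries. Its paralog Zscan4e read 8.16 and 10.2, then 0 and 0.0154 (log2 -3.33 ± 0.17, adjusted p = 0.000678). Zscan4c read 9.20 and 7.28 in EpiLC and was likewise listed at 0 in EpiSC. Of 22 listed genes 11 were tested and all 11 passed as lower, but every one met the filter through the EpiLC libraries only, so this count was bound to hold falls. With no filter 15 of 19 were lower and none higher, and without either EpiLC library no member could be tested. Summed values were 80.4 and 74.8 in EpiLC against 1.05 and 0.889 in EpiSC. Members of the Zscan4 and Usp17l families are near-identical copies, so the number of separate genes is uncertain.

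Genes of germ cell specification split in direction. Of 20 listed 15 were tested, with 3 higher, 7 lower and a median log2 change of -0.83. Without EpiLC library 1 the counts were 6 higher and 5 lower of 12 with a median of -0.09, without EpiLC library 2 the median was -0.29, and with no filter it was -0.11. The rises were Prdm1, which encodes BLIMP1 (0.720 and 1.34, then 30.7 and 30.1, log2 3.97 ± 0.21), Kit, the receptor of stem cell factor (2.27 and 2.69, then 45.0 and 45.8, log2 3.74 ± 0.16), and Tfap2c, which encodes AP-2 gamma (3.49 and 2.91, then 29.5 and 27.2, log2 2.81 ± 0.17). Prdm1 is also an endoderm gene, and Tfap2c is counted in the trophoblast list as well. All 3 were higher in both EpiSC libraries, with adjusted p from 0.000488 to 0.000824. The falls included X-linked homeobox genes of the Rhox cluster. Rhox5 went from 104 and 74.2 to 4.58 and 5.55 (log2 -3.88 ± 0.22, adjusted p = 0.000734), and Rhox6 from 5.14 and 3.94 to a listed 0 in both libraries. Stra8, the retinoic acid target that licenses meiosis, read 1.5 and 1.14 and was then listed at 0 in both. The germ cell regulators Prdm14 (0.279 and 0.231, then 0.311 and 0.150) and Nanos3 (0.903 and 0.867, then 0.947 and 1.25) stayed below the filter at both stages. Dppa3, which encodes STELLA, also did, at 1.81 and 0.422 in EpiLC and 0.0831 and 0.184 in EpiSC.

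Naive pluripotency genes, the circuit that ESC keep under MEK and GSK3 inhibition, fell in part. Of 24 listed 18 were tested, with 11 lower, 0 higher and 7 not passing, and a median log2 change of -1.55. With no filter the count was 10 lower of 22. Zfp42, the naive marker REX1, fell from 30.7 and 28.3 to 0.481 and 0.907 (log2 -4.18 ± 0.20, adjusted p = 0.00057). Tdh, the threonine dehydrogenase of mouse ESC, fell from 57.6 and 50.3 to 3.02 and 4.28 (log2 -3.57 ± 0.20, adjusted p = 0.000734). Esrrb, an orphan receptor that holds the naive state, fell from 5.13 and 6.18 to 0.599 and 1.27 (log2 -1.80 ± 0.23, adjusted p = 0.00562). These genes had no overlap between stages, which the choice of named members favours. Other members did not pass. Nanog read 70.4 and 61.3, then 102 and 82.8 (adjusted p = 0.102), and Klf4 read 2.43 and 2.35, then 2.34 and 3.10 (adjusted p = 0.629). Tfcp2l1 (1.04 and 2.09, then 1.15 and 1.24) and Tbx3 (1.71 and 1.70, then 1.61 and 4.12) were also among them.

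Core pluripotency genes shared by both states gave 5 lower and 1 higher of 12, with a median log2 change of -0.62. The count rested on both EpiSC libraries, since 2 lower and 0 higher were left without either of them. Utf1, a chromatin-bound pluripotency factor, fell from 564 and 389 to 53.5 and 84.5 (log2 -2.78 ± 0.29, adjusted p = 0.00354), and Foxd3, a repressor of the naive program, from 32.3 and 24.8 to 12.5 and 8.68 (log2 -1.36 ± 0.24, adjusted p = 0.0142). Sox2 went from 49.8 and 46.7 to 24.2 and 28.5 (log2 -0.85 ± 0.15, adjusted p = 0.0153, but 0.241 without EpiSC library 1 and 0.0931 without EpiSC library 2). Pou5f1, which encodes OCT4, read 1923 and 1431 in EpiLC and 907 and 825 in EpiSC and did not pass (log2 -0.94 ± 0.25, adjusted p = 0.052).

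Genes typical of the formative epiblast moved both ways, with 7 higher and 5 lower of 23 and a median of 0.17. These are shares of 30.4% and 21.7%, against 12.8% and 11.7% over all genes. Dnmt3a, a de novo DNA methyltransferase, fell from 236 and 277 to 50.5 and 50.6 (log2 -2.32 ± 0.15, adjusted p = 0.000976). Pou3f1, the POU factor OCT6, fell from 61.2 and 52.5 to 21.8 and 30.6 (log2 -1.11 ± 0.21, adjusted p = 0.0178). Fgf5, an FGF ligand of the post-implantation epiblast, rose from 66.6 and 59.9 to 256 and 189 (log2 1.79 ± 0.19, adjusted p = 0.00377). Cdh2, which encodes N-cadherin, rose from 17.0 and 21.9 to 114 and 144 (log2 2.67 ± 0.20, adjusted p = 0.00134). Otx2, a homeobox factor that bars the germ cell fate, rose from 19.9 and 46.0 to 122 and 93.9 (log2 1.78 ± 0.40, adjusted p = 0.0302), with the EpiLC libraries more than 2-fold apart. Its adjusted p was 0.084 with no filter and 0.0511 when libraries were scaled to a common total. The formative counts were 4 higher and 1 lower without EpiSC library 1, 4 and 3 without EpiSC library 2, 10 and 10 without EpiLC library 1 and 11 and 9 without EpiLC library 2.

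Primitive streak and mesendoderm genes, which gastrulating cells switch on under Nodal, Wnt and FGF signals, rose in the main. Of 30 listed 23 were tested, with 19 higher, 0 lower and 4 not passing, and a median log2 change of 2.61. The filter kept 10 of them through the EpiSC libraries only, and with no filter 17 of 30 were higher and 0 lower. Without EpiSC library 1 the count was 13 of 16 and without EpiSC library 2 it was 11 of 16. The list summed to 145 and 119 in EpiLC and to 1541 and 1402 in EpiSC. T (Brachyury), the T-box factor of the streak (chromosome 17, 8434423 to 8442496), went from 18.6 and 18.8 to 281 and 303 (log2 3.89 ± 0.13, adjusted p = 0.000467). Eomes, a T-box factor of mesendoderm and trophoblast, went from 10.1 and 9.83 to 188 and 159 (log2 3.98 ± 0.15, adjusted p = 0.000467). Fgf8, the FGF ligand of the streak, went from 20.0 and 13 to 302 and 239 (log2 3.97 ± 0.24, adjusted p = 0.000836). All 3 were already detected in EpiLC and were higher in both EpiSC libraries, which the choice of named members favours. Evx1 (0.865 and 0.528, then 23.7 and 24.0) and Aplnr, the apelin receptor (0.651 and 0.242, then 11.4 and 9.23), rose as well. Its ligand gene Apela read 56.5 and 45.9, then 73.0 and 72.1, and did not pass (adjusted p = 0.0772). Cdx2 read 1.90 and 1.54, then 3.65 and 8.41 (adjusted p = 0.0544), and the later mesoderm genes Tbx6 (0.546 and 0.339, then 0.495 and 0.714) and Wnt3a (0.0129 and 0.0291, then 0.0850 and 0.111) stayed below the filter.

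Markers of other lineages that such cultures could hold were counted beside these. For endoderm 9 of 16 tested were higher and 6 lower, with a median log2 change of 2.51 and summed values of 545 and 389 in EpiLC and 605 and 589 in EpiSC. The filter kept 7 of the 16 through the EpiSC libraries only and 3 through the EpiLC libraries only. With no filter the endoderm median over 20 genes was 0.51. Gata4 (1.09 and 1.49, then 30.8 and 32.4), Foxa1 (0.321 and 0.291, then 15.6 and 22.4) and Hhex (1.22 and 1.02, then 15.0 and 14.7), all factors of early endoderm, rose. Trf, which encodes transferrin, fell from 5.84 and 3.21 to 0.112 and 0.193, and Apoe from 327 and 224 to 138 and 147. The later visceral endoderm and liver genes Afp, Apoa1 and Hnf4a stayed below 1 in all 4 libraries. For neural progenitors 8 of 14 were higher and 4 lower, with a median of 1.56 and sums of 160 and 151, then 251 and 262. Here 5 were kept through the EpiSC libraries only and 2 through the EpiLC libraries only. The neural median over 26 genes with no filter was 0.19. Npy, which encodes neuropeptide Y, rose from 0.754 and 0.778 to 39.1 and 32.5 (log2 4.38 ± 0.18), and Irx3, an Iroquois homeobox gene, from 1.63 and 0.964 to 19.9 and 16.6 (log2 3.07 ± 0.22). Without EpiSC library 1 or 2 the endoderm counts were 3 higher and 3 lower of 10, with medians of -0.74 and -0.78, and the neural counts were 4 and 2 of 10, with medians of -0.03 and -0.25. Sox1, the earliest definitive neural gene, fell from 2.02 and 1.73 to 0.467 and 0.507, Pax6 fell from 2.71 and 2.87 to 1.04 and 1.60, and Hes5 stayed below 1. For trophoblast 8 of 15 were higher and 3 lower, with sums of 190 and 250, then 550 and 568. Tfap2c, described above as a rise, is counted here, while the stem cell factor Elf5 stayed below 1 and is not among the 8. The filter kept 3 of the 15 trophoblast genes through the EpiSC libraries only and 3 through the EpiLC libraries only. Without EpiLC library 1 or 2 only 13 or 12 could be tested, so falls of this kind could leave the test. Whether such cells contribute to any change above was not tested, and in bulk libraries fewer cells of a kind cannot be told apart from less RNA per cell.

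Ligands, antagonists and targets of the pathways that pattern the streak were then described. Nodal, the TGF-beta ligand of the epiblast, read 73.6 and 61.2 in EpiLC and 67.7 and 66.3 in EpiSC, a log2 change of 0.00 ± 0.15 with overlapping values. Its relatives Gdf3 (50.4 and 41.1, then 1.30 and 2.18, log2 -4.11 ± 0.23, adjusted p = 0.000734) and Gdf1 (17.5 and 10.2, then 0.540 and 0.577, log2 -3.21 ± 0.27, adjusted p = 0.00195), which dimerize with Nodal, fell. Tdgf1, the Nodal co-receptor CRIPTO, went from 408 and 344 to 194 and 175 (log2 -1.02 ± 0.17, adjusted p = 0.0132), a call lost without either EpiSC library (0.137 and 0.254). Cfc1, the related co-receptor CRYPTIC, rose from 0.268 and 0.175 to 32.9 and 31.9 (log2 4.78 ± 0.16, adjusted p = 0.000467). Among the secreted inhibitors Lefty2 fell from 86.1 and 81.1 to 53.2 and 42.7, with an adjusted p of 0.023 that was 0.102 and 0.39 without EpiSC library 1 and 2. Lefty1 rose from 93.8 and 69.9 to 166 and 142 (log2 0.91 ± 0.20, adjusted p = 0.0275). The BMP inhibitors Chrd (1.15 and 1.25, then 5.43 and 5.63) and Nog (1.58 and 1.2, then 7.89 and 9.84) rose by log2 1.57 and 2.04. Of 21 tested genes of the Nodal ligands and antagonists 9 were higher and 5 lower, which became 2 and 3 of 18 without EpiSC library 1 and 3 and 3 of 18 without EpiSC library 2, and 14 and 5 of 20 without EpiLC library 2.

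BMP ligands and SMAD1/5 targets had 12 of 16 higher and 1 lower, with a median log2 change of 1.78. The ligands Bmp2 (0.870 and 1.05, then 11.9 and 12.1, log2 2.73 ± 0.16, adjusted p = 0.000811), Bmp7 (1.26 and 1.18, then 8.76 and 10.2, log2 2.23 ± 0.17) and Bmp4 (5.44 and 3.69, then 22.6 and 28.4, log2 2.26 ± 0.23) rose. Bmp8b, a ligand made by extraembryonic ectoderm in embryos, was the member that fell, from 4.79 and 5.69 to 0.863 and 0.929. The signal transducer Smad1 went from 8.40 and 9.70 to 36.6 and 38.9 (log2 1.95 ± 0.16, adjusted p = 0.00161). The targets Id1 (12.3 and 8.67, then 54.6 and 73.3), Id3 (28.6 and 19.08, then 89.1 and 98.9) and Msx1 (1.35 and 0.984, then 12.1 and 18.5) rose, while Id2 read 30.0 and 27.0, then 20.0 and 28.3, with overlapping stages. Without EpiSC library 1 or 2 the count was 10 or 9 higher of 14.

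Wnt ligands and beta-catenin targets had 17 of 27 higher and 4 lower, with a median of 1.08. Wnt3, the ligand that starts the streak, rose from 7.28 and 5.62 to 29.2 and 28.6 (log2 2.01 ± 0.18, adjusted p = 0.0022). Wnt11 rose from 0.996 and 0.720 to 28.6 and 22.8 (log2 3.84 ± 0.20), and Wnt5a, of the planar polarity branch, from 0.204 and 0.337 to 10.2 and 12.2 (log2 3.26 ± 0.18). The antagonist Sfrp1 rose from 3.75 and 4.31 to 66.5 and 76.5 (log2 3.85 ± 0.16). Stages did not overlap in any of these ligands or in the target Sp5 (6.50 and 4.13, then 50.0 and 52.0). The nuclear partners of beta-catenin moved apart, since Lef1 fell from 24.4 and 27.6 to 11.1 and 16.7 (log2 -0.88 ± 0.23, adjusted p = 0.0465), Tcf7 fell and Tcf7l2 rose. The 4 lower Wnt members were reduced to 0 with libraries scaled to a common total, and the counts were 9 higher and 0 lower or 7 and 1 of 21 without EpiSC library 1 or 2. For FGF ligands and ERK feedback 5 of 16 were higher and 2 lower, against 9 and 4 or 10 and 3 without EpiLC library 1 or 2 and 3 and 2 or 3 and 1 without EpiSC library 1 or 2. Fgf4, the ligand of naive cells, fell from 23.3 and 22.3 to 2.71 and 3.01 (log2 -2.62 ± 0.16, adjusted p = 0.00084), and Dusp4, an ERK phosphatase, rose from 28.1 and 37.2 to 87.7 and 110 (log2 1.58 ± 0.20, adjusted p = 0.00605).

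Cell adhesion and matrix genes were counted by list. Of 24 tested genes of epithelial-mesenchymal transition 10 were higher and 3 lower, against 8 and 1 of 22 without EpiSC library 1, 6 and 0 of 22 without EpiSC library 2, and 10 and 0 with no filter. Cdh11 rose from 0.852 and 0.905 to 12.5 and 14.3 (log2 2.93 ± 0.17, adjusted p = 0.00075), Snai1, the repressor that starts the transition in the streak, from 3.11 and 2.78 to 9.95 and 10.2 (log2 1.49 ± 0.16), and Vim, vimentin, from 407 and 314 to 959 and 1048. Epithelial genes did not move as a block. Krt19, a simple epithelial keratin, rose from 21.4 and 12.6 to 127 and 139 (log2 2.94 ± 0.26), Dsp, desmoplakin, rose from 0.503 and 0.407 to 6.52 and 7.93 (log2 2.49 ± 0.17), and the claudins Cldn3 and Cldn4 fell by 1.23 and 0.80 on the log2 scale. Collagen and matrix genes had 17 of 30 higher and 1 lower, with a median of 0.94. Fn1, fibronectin, rose from 82.2 and 102 to 270 and 293 (log2 1.61 ± 0.17, adjusted p = 0.00359), and Col5a1 from 8.5 and 10.6 to 30.2 and 31.2 (log2 1.59 ± 0.17, adjusted p = 0.00365). The counts of this list were 12 of 29 without EpiSC library 1 and 8 of 29 without EpiSC library 2. Fibroblast and feeder markers, some of them in the same list, had 5 of 11 higher and 1 lower, with sums of 51.5 and 52.9 in EpiLC and 89.5 and 101 in EpiSC. Without either EpiSC library 2 of 10 of these markers were higher. The fibroblast gene Lum read 0.0147 and 0 in EpiLC and 0.0121 and 0.0629 in EpiSC, and Dcn read 1.31 and 1.42, then 0.590 and 0.743. Neither is among the 5 markers that were higher, so these values do not stand for the list.

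Chromatin regulators were counted next. For H3K4 methyltransferases and COMPASS partners, the complexes in which MLL3 and MLL4 work, 1 of 23 was higher and 1 lower. Ash2l, a shared core subunit, fell from 172 and 156 to 101 and 98.9 (log2 -0.71 ± 0.14, adjusted p = 0.0214), which was lost without EpiSC library 1 or 2 (0.326 and 0.387). Hcfc2 was the higher one, at 1.14 and 1.52, then 3.25 and 2.47 (adjusted p = 0.0444), also lost without either EpiSC library (0.295 and 0.0823). This count turned to 2 higher and 6 lower without EpiLC library 1, where the list median turned from log2 0.14 to -0.14, and to 10 higher and 1 lower without EpiLC library 2. Among polycomb repressive complexes 6 of 35 were higher (17.1%) and 4 lower (11.4%), near the shares over all genes of 12.8% and 11.7%. Cbx7, the CBX protein of ESC, fell from 117 and 134 to 43.4 and 36.5 (log2 -1.63 ± 0.16, adjusted p = 0.00297), while Cbx2 and Cbx8, which replace it on differentiation, rose by log2 0.81 and 0.98. Phc1 fell from 101 and 126 to 55.0 and 56.4 and Phc2 rose from 38.1 and 37.5 to 73.7 and 79.1. The polycomb counts were 4 and 1 or 2 and 1 of 34 without EpiSC library 1 or 2, and 12 and 7 or 20 and 8 without EpiLC library 1 or 2. The Phc1 call was lost without either EpiSC library (0.101 and 0.0917) and that of Phc2 without EpiSC library 2 (0.0877). For DNA methylation 5 of 22 were lower and 1 higher, against 9 and 2 of 21 without EpiLC library 1 and 7 and 5 of 21 without EpiLC library 2. With all 4 libraries the DNA methylation shares were 22.7% lower and 4.55% higher, against 11.7% and 12.8% over all genes. Beside Dnmt3l and Dnmt3a, Dnmt3b read 452 and 629, then 344 and 338, and did not pass (adjusted p = 0.094). The maintenance enzyme gene Dnmt1 changed by log2 -0.02 and its recruiter Uhrf1 by -0.12, neither passing.

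Metabolic and stress lists gave mixed counts. Of 32 tested genes of the integrated stress response, the ATF4 program of amino acid shortage, 12 were lower and 1 higher, with a median log2 change of -0.48. Trib3, a pseudokinase of that program, fell from 44.7 and 38.7 to 18.3 and 13.3 (log2 -1.36 ± 0.20, adjusted p = 0.00868), and Nupr1, a stress-induced nuclear protein, from 25.4 and 17.0 to 1.63 and 1.81 (log2 -3.0 ± 0.23, adjusted p = 0.00152). The count was 6 lower without EpiSC library 1 and 4 without EpiSC library 2, and 18 or 17 of 31 without EpiLC library 1 or 2. Glycolysis and hypoxia response genes had 7 of 32 lower and 3 higher, with 16 lower without EpiLC library 2, 4 lower without EpiSC library 1 and 2 lower without EpiSC library 2. Pdk1, which diverts pyruvate from the mitochondrion, fell from 61.7 and 83.1 to 18.5 and 12.4 (log2 -2.17 ± 0.25, adjusted p = 0.00444), and the glucose transporter gene Slc2a3 rose from 173 and 215 to 602 and 542 (log2 1.56 ± 0.19, adjusted p = 0.00497). None of 61 oxidative phosphorylation genes passed by limma, with a median of -0.29 and 1 at an unadjusted p under 0.05, but 53 were lower without EpiLC library 2. Without EpiLC library 1 the count was 5 higher and 4 lower and the median was 0.05. Their sum was 26930 in EpiLC library 1 and between 16377 and 17673 in the other 3 libraries.

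Interferon-stimulated genes had 22 of 29 higher and 1 lower, with a median log2 change of 1.13. The filter kept 5 of them through the EpiSC libraries only and 1 through the EpiLC libraries only, and with no filter 18 of 35 were higher and 0 lower. Summed over the list, values changed less, at 907 and 701 in EpiLC and 934 and 987 in EpiSC. Usp18, which removes ISG15 and restrains the receptor, rose from 0.689 and 0.686 to 30.0 and 30.1 (log2 4.2 ± 0.16, adjusted p = 0.000467). Gbp3, a guanylate-binding protein, rose from 6.93 and 7.18 to 32.8 and 37.9 (log2 2.17 ± 0.16, adjusted p = 0.00131), and Ifih1, the RNA sensor MDA5, from 0.761 and 0.887 to 5.22 and 6.22 (log2 1.88 ± 0.17). Both EpiSC libraries were above both EpiLC libraries in these 3. The count was 10 of 24 without EpiSC library 1 or 2. Imprinted genes had 8 of 23 higher and 0 lower. Peg3, a paternally expressed zinc finger gene, rose from 6.37 and 13.2 to 139 and 135 (log2 3.75 ± 0.32, adjusted p = 0.00198), and its neighbour Usp29 from 1.22 and 2.32 to 13.3 and 11.5 (log2 2.30 ± 0.25). Without EpiSC library 1 or 2 the imprinted count was 4 or 3, and without EpiLC library 2 it was 14.

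Further lists were counted in the same way. Over all genes 12.8% were higher and 11.7% lower. The shares of heat shock chaperones (15.0% higher and 5.0% lower) and of p53 targets (10.0% and 15.0%) lay near these. The Sprr2a and keratin list had 6 of 9 higher and 0 lower, among them Krt7, a simple epithelial keratin (1.94 and 2.64, then 6.32 and 8.49). Heat shock chaperones had 3 of 20 higher and 1 lower, with 1 to 7 higher and 0 to 3 lower when single libraries were left out. Serpinh1, the collagen chaperone HSP47, rose from 132 and 114 to 360 and 357 (log2 1.54 ± 0.16), and Hspb1, a small heat shock protein, fell from 278 and 167 to 95.8 and 107. Immediate early genes had 6 of 15 higher and 2 lower, which became 1 and 0 without EpiSC library 1 and 0 and 0 without EpiSC library 2. Targets of p53 had 2 of 20 higher and 3 lower, with 0 to 3 higher and 1 to 6 lower when single libraries were left out. Sterol and fatty acid synthesis had 2 of 27 higher and 0 lower, but 5 and 1 without EpiLC library 1 and 13 and 7 without EpiLC library 2. None of 13 mitochondrially encoded genes passed by limma, 0 of them at an unadjusted p under 0.05, but 2 were higher without EpiLC library 1 and 6 higher and 3 lower without EpiLC library 2. Of 39 Hox genes 4 were tested, and Hoxd1 rose from 0.0988 and 0.0595 to 2.21 and 3.57 (log2 1.83 ± 0.21).

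**Figure D2:**
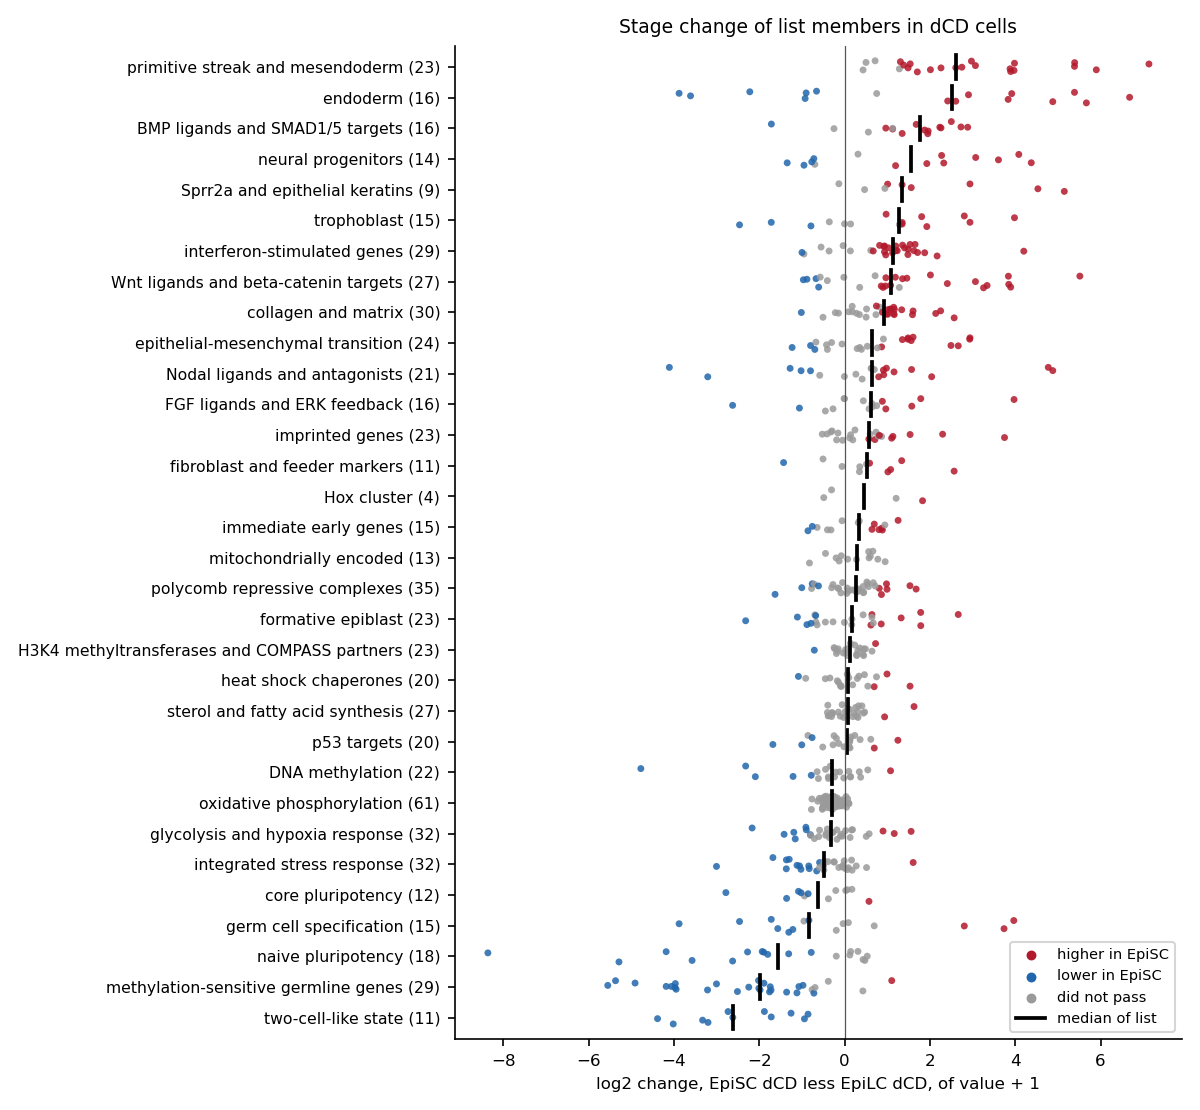
Stage change of every tested member of the 32 gene lists, sorted by list median (black bar). The x axis is the log2 change of value + 1, EpiSC dCD less EpiLC dCD, and red, blue and grey points are genes higher, lower or not passing at an adjusted p under 0.05, with the number tested in parentheses. Medians run from -2.62 for the 2-cell-like state to 2.61 for primitive streak and mesendoderm, beside 0.01 over all genes.

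Genes that mark each stage in single-cell data of WT cells in the same system, or that lie near its enhancers, were taken from the supplementary tables. The paper chose its enhancers by their nearness or links to these same marker genes. The lists of genes near or linked to enhancers therefore overlap the marker lists by design and are not separate evidence. Among 504 tested EpiSC genes 243 were higher and 10 lower in EpiSC dCD, with a median log2 change of 0.68, and among 138 genes near EpiSC enhancers 84 were higher and 1 lower (median 0.95). Among 337 EpiLC genes 13 were higher and 153 lower (median -0.68), and among 149 genes near EpiLC enhancers 8 and 61 (median -0.56). PGCLC genes, of which 346 were tested, had 29 higher and 126 lower (median -0.50). Genes linked to Group I PGCLC enhancers, those with more H3K4me1 in EpiLC than in EpiSC in WT cells, had 11 higher and 54 lower of 154 (median -0.48). The paper reports that H3K4me1 at PGCLC enhancers was strongly reduced in dCD cells at both stages. Leaving out either EpiSC library took the EpiSC genes that were higher to 146 or 125 and those near EpiSC enhancers to 51 or 44. Leaving out EpiLC library 1 or 2 gave 339 or 356 higher EpiSC genes. The PGCLC genes had 92 or 86 lower without EpiSC library 1 or 2 and 155 or 152 lower without EpiLC library 1 or 2, where 50 or 69 were higher. Over the same settings the Group I genes had 37 to 75 lower and 4 to 35 higher, with a median of -0.28 without EpiLC library 2, and genes near EpiLC enhancers had 45 to 83 lower and 1 to 26 higher.

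The stage change was then set beside that of WT cells, in a fit to all 8 libraries rescaled together. Of 12720 genes tested the change differed between the genotypes in 1298 (10.2%), being higher in dCD in 530 (4.17%) and lower in 768 (6.04%). Of 1570 genes called higher in dCD and tested there, 1438 (91.6%) also had a positive change in WT, with medians of log2 1.09 in dCD and 0.71 in WT, and 424 differed. Of 1438 called lower, 1231 (85.6%) had a negative change in WT, with medians of -1.14 and -0.58, and 454 differed. The genes were chosen for their change in dCD, and the same dCD libraries enter the difference. The larger dCD medians and the numbers that differed are therefore no sign of a larger effect.

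**Figure D3:**
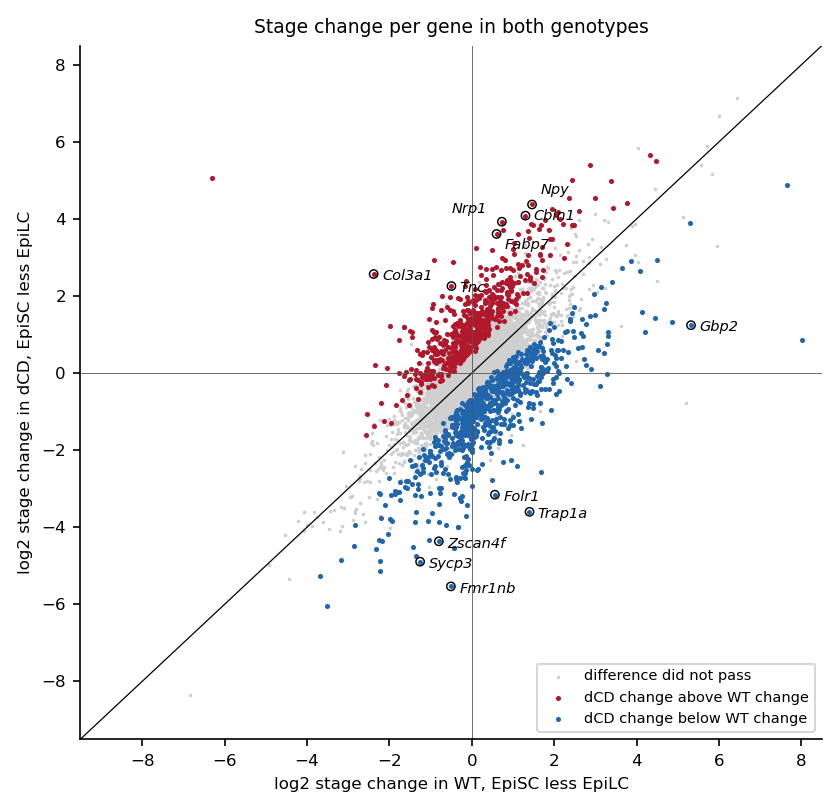
Stage change of each of 12720 genes in WT (x axis) and dCD (y axis), both as log2 of value + 1, EpiSC less EpiLC, from the fit to all 8 libraries. Red and blue mark genes whose change was higher or lower in dCD at an adjusted p under 0.05, the diagonal is an equal change, and circles mark the 12 named genes. Most points lie along the diagonal, with Col3a1 and Fmr1nb among the widest departures.

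Among genes that met the rule for named genes, the 6 in which the dCD change exceeded the WT change most are given here. Over all genes 8 were called with a difference of log2 3 or more, so larger differences were left out by the rule. Col3a1, a fibrillar collagen, went from 1.19 and 2.49 to 13.4 and 17.7 in dCD but from 46.3 and 43.6 to 6.83 and 8.89 in WT, a difference of log2 4.95 ± 0.35 (adjusted p = 0.00112) between changes of opposite sign. Nrp1, the semaphorin and VEGF co-receptor, went from 0.587 and 0.980 to 22.6 and 29.8 in dCD and from 2.65 and 1.96 to 5.61 and 3.49 in WT (3.20 ± 0.34). Fabp7, a fatty acid binding protein of radial glia, went from 2.43 and 1.87 to 37.6 and 37.0, and in WT from 3.41 and 3.13 to 6.04 and 4.94 (3.01 ± 0.20). Npy, Cbln1, a synaptic organizer, and Tnc, the matrix protein tenascin C, had differences of 2.91 ± 0.31, 2.78 ± 0.35 and 2.75 ± 0.40. In WT, Npy went from 0 and 0.141 to 2.66 and 1.36, and with a pseudocount of 0.1 its difference was 1.68 and did not pass (adjusted p = 0.175). In 4 of these 6 genes the WT change had the same sign as the dCD change, and in Col3a1 and Tnc it had the opposite sign.

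In each of the 6 named genes with the lowest difference both EpiLC dCD libraries were above both EpiLC WT libraries. High EpiLC dCD values and low EpiLC WT values lower the difference by which these genes were chosen. The choice therefore favours this pattern, which is no separate finding. Fmr1nb went from 90.9 and 61.0 to 0.414 and 0.866 in dCD but from 44.0 and 52.7 to 34.0 and 33.1 in WT (-5.03 ± 0.31, adjusted p = 0.000817). Trap1a, a tumor rejection antigen gene on the X chromosome, fell from 89.2 and 68.1 to 4.60 and 6.56 in dCD, and in WT read 7.01 and 7.48, then 20.6 and 20.9 (-5.00 ± 0.26, adjusted p = 0.000471). Gbp2, an interferon-induced GTPase, rose from 24.6 and 27.5 to 62.2 and 63.4 in dCD and from 0.898 and 1.04 to 85.8 and 70.1 in WT (-4.08 ± 0.18, adjusted p = 0.000411). Its EpiSC levels were thus alike in scale between genotypes while its EpiLC levels were not. Folr1, a folate receptor, went from 42.3 and 29.7 to 3.42 and 2.77 in dCD and from 4.18 and 4.03 to 5.97 and 7.13 in WT (-3.72 ± 0.27). Sycp3 fell from 40.6 and 33.6 to 0.340 and 0.212 in dCD and read 25.7 and 28.0, then 8.76 and 12.9, in WT (-3.64 ± 0.27, adjusted p = 0.00114). Zscan4f read 20.3 and 19 in EpiLC dCD, 0.893 and 0.604 in EpiLC WT, and was listed at 0 in all 4 EpiSC libraries.

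**Figure D4:**
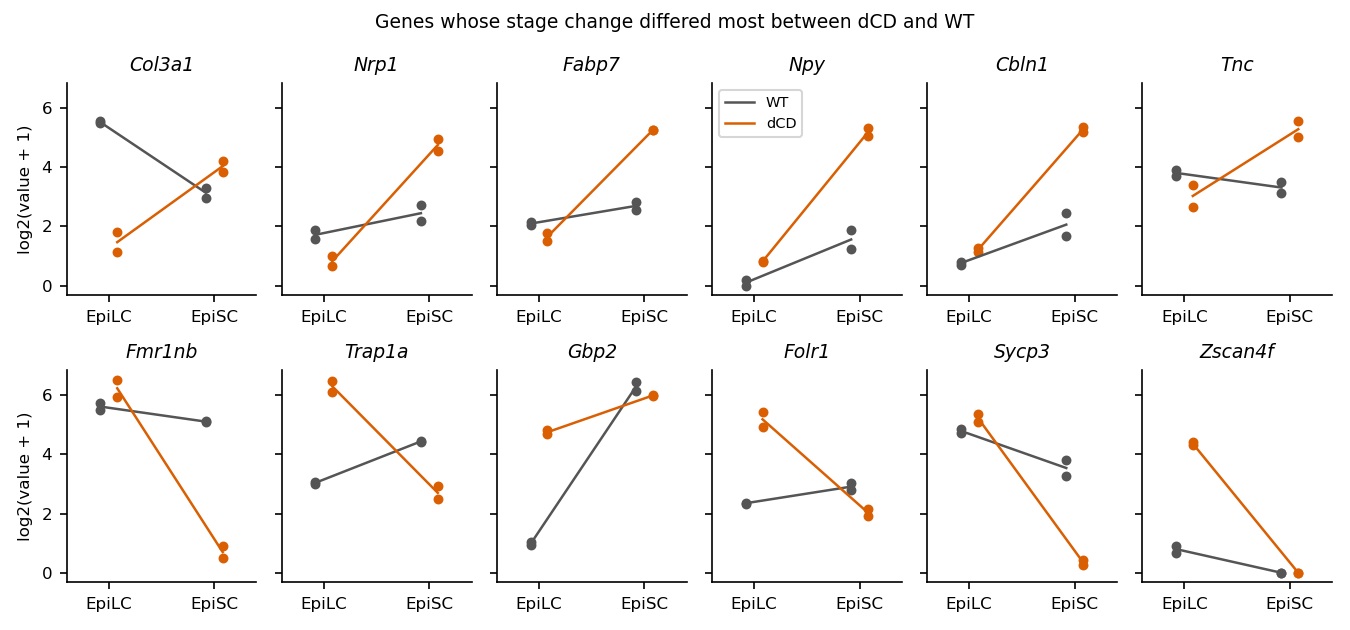
Levels of the 6 named genes with the highest (top row) and 6 with the lowest (bottom row) difference in stage change between dCD (orange) and WT (grey). The y axis is log2(value + 1) after rescaling of all 8 libraries together, points are libraries, 2 per group, and lines join group means. In Col3a1 the genotypes change in opposite directions, and in Gbp2 the genotypes differ in EpiLC far more than in EpiSC.

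Over the lists the difference fell unevenly. It was lower in dCD in 13 of 29 methylation-sensitive germline genes and higher in none, and the median change was log2 -1.97 in dCD and -1.10 in WT. Between 6 and 19 of the germline genes were lower when single libraries were left out. All 11 tested genes of the 2-cell-like state had a lower difference, with medians of -2.61 and -0.16, under the same filter through EpiLC dCD. The integrated stress response had 16 of 33 lower and 0 higher, with medians of -0.48 in dCD and 0.39 in WT, and Trib3 changed by log2 -1.36 in dCD and 0.92 in WT (difference -2.27 ± 0.27, adjusted p = 0.00432). The stress response count was 7 to 26 lower when single libraries were left out and 9 with a replicate block. In the naive pluripotency list 8 of 18 were lower and 1 higher, with medians of -1.55 and 0.00, and Esrrb changed by log2 -1.79 in dCD and 0.45 in WT (difference -2.24 ± 0.26, adjusted p = 0.00432). Collagen and matrix genes had 13 of 31 higher and 0 lower, reduced to 4 higher with libraries scaled to a common total and between 3 and 17 higher when single libraries were left out. Interferon-stimulated genes had 9 of 29 lower and 1 higher, with 3 to 11 lower when single libraries were left out.

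Streak genes differed in both directions, with 8 of 23 higher and 2 lower. Mixl1 rose by log2 5.39 in dCD and 2.87 in WT (difference 2.52 ± 0.55, adjusted p = 0.0342), and Eomes by 3.99 and 2.15 (1.84 ± 0.33, adjusted p = 0.0183). The rise of T was smaller in dCD than in WT, at 3.90 against 5.30 (difference -1.40 ± 0.17, adjusted p = 0.00487), with EpiLC values of 18.4 and 18.6 in dCD and 4.46 and 4.01 in WT. Cer1 reached 25.6 and 33.8 in EpiSC dCD and 247 and 170 in EpiSC WT (difference -2.78 ± 0.29, adjusted p = 0.00299), and Chrd rose by log2 1.57 in dCD and 4.14 in WT (difference -2.57 ± 0.16, adjusted p = 0.000817). For Lhx1, Gsc, Sox17 and Foxa2 the differences were 0.70 ± 0.37, 0.18 ± 0.44, 0.68 ± 0.27 and -0.17 ± 0.25, and none passed. Without EpiSC dCD library 1 or 2 the streak counts for the difference were 3 higher and 3 lower or 3 and 2 of 20, and without EpiLC WT library 1 they were 3 and 2 of 23.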

How the data were processed

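RNA was sequenced from WT and Mll3/4 dCD cells as EpiLC and EpiSC, with 2 libraries in each of 4 groups. Per the file headers the deposited signal values are TPM, made by the authors with kallisto and sleuth on Ensembl release 96 and mm10. Their sums differ between libraries, so they were treated here as TPM times 1 factor per library, which the sources do not state, and the EpiLC and EpiSC values stand in separate tables. The sources used here give neither the versions of kallisto and sleuth nor the read depth. Columns were matched to samples by name, and 6 columns matching no labelled sample were not used. Some genes, mainly of chromosomes 13 to 19, are not analysed here.

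The 4 dCD columns were joined by gene, rescaled by the median of ratios over 16248 genes above 0 in all 4, and tested as log2(value + 1) by limma (version 3.58.1, R 4.3.3) using empirical Bayes moderation and a mean-variance trend, Benjamini-Hochberg adjustment and calls at 0.05, on genes with a value of 1 or more in at least 2 libraries. The difference in stage change was tested in the 8 libraries rescaled together. The code was tested on simulated data. Errors are SE from the fit.

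Named genes are called, protein-coding, have a symbol that is not a clone name, a mean of at least 5 and stages that do not overlap. The 12 largest rises and falls, the 6 highest and lowest differences (overlap judged in either genotype), up to 4 members per list by smallest p and a written panel were named, and further list members in the text were chosen after their values were seen. The members and all lists were chosen with earlier results of these data known, and 7 lists came from the study's own supplementary tables. Promoter sequences are from RefSeq (GRCm38.p6). Alternatives were other pseudocounts, filters, scalings, no trend, a replicate block, single libraries left out and a fit to all 8 libraries. Counts per list without single libraries were added after seeing the data.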

Additional observations from a re-analysis of the deposited data

Results flagged for a closer look

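The stage change differed between dCD and WT in 12 named genes by the interaction test in limma across 12720 genes, with 2 libraries per group. The change was higher in dCD for Col3a1 by log2 4.95, Nrp1 by 3.20, Fabp7 by 3.01, Npy by 2.91, Cbln1 by 2.78 and Tnc by 2.75. The difference was -5.03 for Fmr1nb, -5.00 for Trap1a, -4.08 for Gbp2, -3.72 for Folr1 and -3.64 for Sycp3. For Zscan4f it was -3.57, a value that depends on the added constant because the gene was listed at 0 in all EpiSC libraries. Genotype and clone cannot be told apart in any of them.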

How the results depend on the processing

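In dCD 1571 genes were higher and 1442 lower in EpiSC. Requiring a mean of 5 or more left 863 and 632, and in the fit to all 8 libraries 2657 and 2317. Lower genes numbered 926 at a common total and 900 without mitochondrial genes. Leaving out single libraries gave 603 to 3859 higher and 881 to 3160 lower. This leaves a stage with 1 sample, assumed to vary like the other stage, and drops genes that met the filter through it. For the difference, 530 higher and 768 lower became 189 and 343 under the same requirement, and higher genes numbered 314 at a common total and 313 without mitochondrial genes. Leaving out single libraries gave 144 to 1685 higher and 253 to 1571 lower. The median over all genes moved to log2 0.13 as deposited, 0.18 at a common total and 0.19 without mitochondrial genes. No named gene changed sign in a call. Medians of some lists did: without EpiSC library 1 and 2 endoderm turned from log2 2.51 to -0.74 and -0.78 and neural progenitors from 1.56 to -0.03 and -0.25, after 6 and 4 members left the filter. Without EpiLC library 1 oxidative phosphorylation turned from -0.29 to 0.05, H3K4 methyltransferases and partners from 0.14 to -0.14, and sterol synthesis from 0.08 to -0.04. Germ cell specification turned from -0.83 to 0.03 with a mean of 5 or more. The medians of p53 targets and of the Hox genes also changed sign in some settings. The replicate numbers are shared by the groups but only 2 pairs exist, and same-numbered dCD deviations correlated at 0.119 across genes, so they were not taken as pairs. With a replicate block the counts were 1964 and 1807 in dCD, and 296 and 485 for the difference. Read depth is unknown, so no counting interval can be given for low values.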

Other observations

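A cluster of zinc finger genes on chromosome 4 fell almost as a block, a group chosen after its values were seen and therefore given with no test. Of 18 Zfp genes between 145510759 and 147848366 (GRCm38) all 18 were tested, with 17 lower in EpiSC dCD (94.4%), 0 higher and a median log2 change of -2.70. Among 282 tested Zfp genes elsewhere 24 were lower (8.51%) and 15 higher, with a median of 0.04. Zfp978 read 13.5 and 37.9 in EpiLC and 0.395 and 0.508 in EpiSC, Zfp985 read 21.7 and 23.7, then 0.619 and 1.18, and Zfp534 read 12.8 and 14.8, then 0.388 and 0.338. Both EpiLC libraries were above both EpiSC libraries in these 3. These 3 and some other members met the filter through the EpiLC libraries only, which favours falls. The member that was not lower was Zfp933, at 2.25 and 2.32, then 2.84 and 3.16. In WT the median change of the cluster was -1.40, and the difference in change was lower in dCD in 11 of 18 and higher in none. These genes are near-identical copies that share reads, so the number of separate genes that fell is uncertain.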
